A study of Mus musculus with 16 samples.

Results

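Of the human microRNAs (miRNAs) numbered 550 to 1999, 73 were detected in the extracellular RNA of X-irradiated HCT116 cells, and their levels were followed over 4 doses. They were chosen by name and by measured detection. A name with a number in that range was kept if at least 1 of its probes was well above background, on over 0.5 of its spots, on all 4 arrays of at least 1 dose. After 16 numbers were left out of the range by the rule, 306 names remained on the array, and 73 of them met it. They are part of 283 human miRNAs that passed the same detection rule, out of 1205 on the array, and the other 210 serve as the comparison. Detection chose the members, so the detection values below are a description and carry no test. Under the 16 numbers left out, 20 names were detected, and 8 of these passed the threshold for change at 2 Gy and 12 at 6 Gy, so nothing is read from a lower share of changed miRNAs among the members.

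HCT116 is an established human colorectal carcinoma line with wild-type p53. Cultures were given 0, 2, 6 or 10 Gy of high-dose-rate X-rays and then held for 72 h in RPMI1640 with 10% fetal bovine serum. The 0 Gy cultures are the unirradiated controls, and they shared the line, the medium and the time in culture with the irradiated ones. Small RNA was taken from the culture supernatant with ISOGEN, and 100 ng per sample was labelled with Cy3. Each dose had 4 separate cultures, per the design text, and 1 single-colour Agilent miRNA array per culture, so n = 4 at each dose and 16 arrays in all. The design text leaves out 2 Gy, a dose taken here from the labels of those arrays. Although the labels name mouse as the organism, HCT116 is human and the probes target human miRNAs, and the values were read so. The study followed 1 line and only its released RNA, in medium that held serum, and medium without cells was not analysed here.

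A miRNA is a short RNA that, loaded into an Argonaute protein, pairs mainly through its seed (bases 2 to 8) with messenger RNAs and lowers their output. Cells release miRNAs in vesicles and bound to proteins, so RNA in a supernatant reflects both what the cells make and what they let go. A miRNA's number follows the order of its discovery. Those numbered in this range mostly come from cloning and deep sequencing, and many are weakly expressed or found in primates alone. The range also holds mirtrons, whose hairpins are short introns freed by splicing without Drosha, and names later traced to fragments of other RNAs.

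The RefSeq miRNA table used here is of the mouse (GRCm38.p6), and 12 of the 73 members (16.4%) matched an entry by name. With so few matched, a check of base composition or seeds over the members is void. Shown are the mouse miRNAs that carry the names of a member that fell at 6 Gy, of the member that rose at 2 Gy, of a member that read low on 1 array of 6 Gy, and of both arms of 1 mirtron. Capitals mark the seed. The 12 matched entries had 12 distinct seeds, so none of these shared one.
miR-574-5p: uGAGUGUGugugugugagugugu
miR-1224-5p: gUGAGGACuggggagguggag
miR-670-5p: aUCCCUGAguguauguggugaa
miR-877-5p: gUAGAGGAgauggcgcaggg
miR-877-3p: uGUCCUCUucucccuccuccca
In this table miR-574-5p is mostly alternating G and U, and the arms of miR-877 differ in G content, 55.0% in the 5p arm and 4.55% in the 3p arm.

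Levels are log2 of the background-subtracted signal divided by a percentile of the same array, so 0 is that percentile and -4.60 is the floor below which values were not ordered. They can be compared between arrays for 1 miRNA, not between miRNAs. Over all 73 members the mean level, with SD over 4 arrays, was -1.98 ± 0.07 in the controls, -1.99 ± 0.09 after 2 Gy, -1.96 ± 0.06 after 6 Gy and -1.98 ± 0.06 after 10 Gy. Each array detected between 61 and 73 of the members, and between 242 and 358 of all human miRNAs. Replicate arrays correlated between 0.902 and 0.998 over the 283 miRNAs, with the lowest value at 0 Gy. The 0 and 2 Gy arrays lie on slide 1 and the 6 and 10 Gy arrays on slide 2, so a difference of 6 or 10 Gy from 0 Gy and a difference between slides cannot be told apart. The Agilent labelling spike-in, on its log2 scale, averaged 6.35 ± 5.83 (SD, n = 4) in the controls, 4.82 ± 2.68 after 2 Gy, 2.70 ± 3.86 after 6 Gy and 7.38 ± 1.26 after 10 Gy. It was undetected on array 3 of 0 Gy and array 4 of 6 Gy. Both carry the same value, -2.32, which enters these averages and the later fits with the spike-in as a covariate. The other arrays lay between 8.30 and 10.1 at 0 Gy and between 1.67 and 5.95 at 6 Gy. The scanner software flagged the spike-in as in range only on arrays 1 and 4 of 0 Gy and array 2 of 10 Gy, so on no array of 2 or 6 Gy. Of 18 epithelial and colorectal miRNA names, 9 were detected on some array and 1 on all 16, while miR-192 and miR-194, which mark intestinal epithelium, were detected on none. Of the blood cell names, miR-451a, miR-142 and miR-223 were detected on none, while miR-486-5p, miR-150-3p and miR-155-5p were detected on all 16 arrays.

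Detection was nearly complete at every dose. Of the 73 members, 59 met the rule at all 4 doses and were detected on all 16 arrays, 3 met it at 3 doses, 7 at 2 doses and 4 at 1 dose. By rising dose, the members that met it numbered 66, 71, 65 and 61. At no dose was any member undetected on all 4 arrays. The 3 that met it at 3 doses were miR-563, miR-584-5p and miR-936. The 4 that met it at 1 dose were miR-1208 and miR-1273d at 0 Gy and miR-1236-3p and miR-1825 at 2 Gy, and all 4 lay near the floor. miR-1208 was detected on 4 arrays at 0 Gy and 3 at each other dose, at mean levels from -4.54 to -4.30. miR-1273d was detected on 4, 3, 1 and 3 arrays at 0, 2, 6 and 10 Gy. miR-1825 was detected on 2, 4, 3 and 1 arrays, and its single high value, -3.0, was on array 4 of 6 Gy.

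Just outside the rule were 6 names detected on 3 of the 4 arrays at their best dose. They were miR-574-3p, miR-596, miR-634, miR-662, miR-1470 and miR-1915-5p. miR-574-3p, the other arm of the hairpin that gives miR-574-5p, was detected on 3, 1, 2 and 2 arrays at 0, 2, 6 and 10 Gy, with mean levels of -3.86, -4.55, -4.60 and -4.51. Of the 233 names outside, a further 4 reached 2 arrays at their best dose and 15 reached 1, and the rest were detected on no array.

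miR-638, from an intron of the dynamin gene DNM2, had a mean level of 3.34 ± 0.14 (SD, n = 4) in the controls, 3.38 ± 0.27 after 2 Gy, 3.61 ± 0.12 after 6 Gy and 3.48 ± 0.14 after 10 Gy. The spread within a dose was small for most members. The median pooled SD was 0.21 over the members and 0.24 over the other tested miRNAs.

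**Figure D1:**
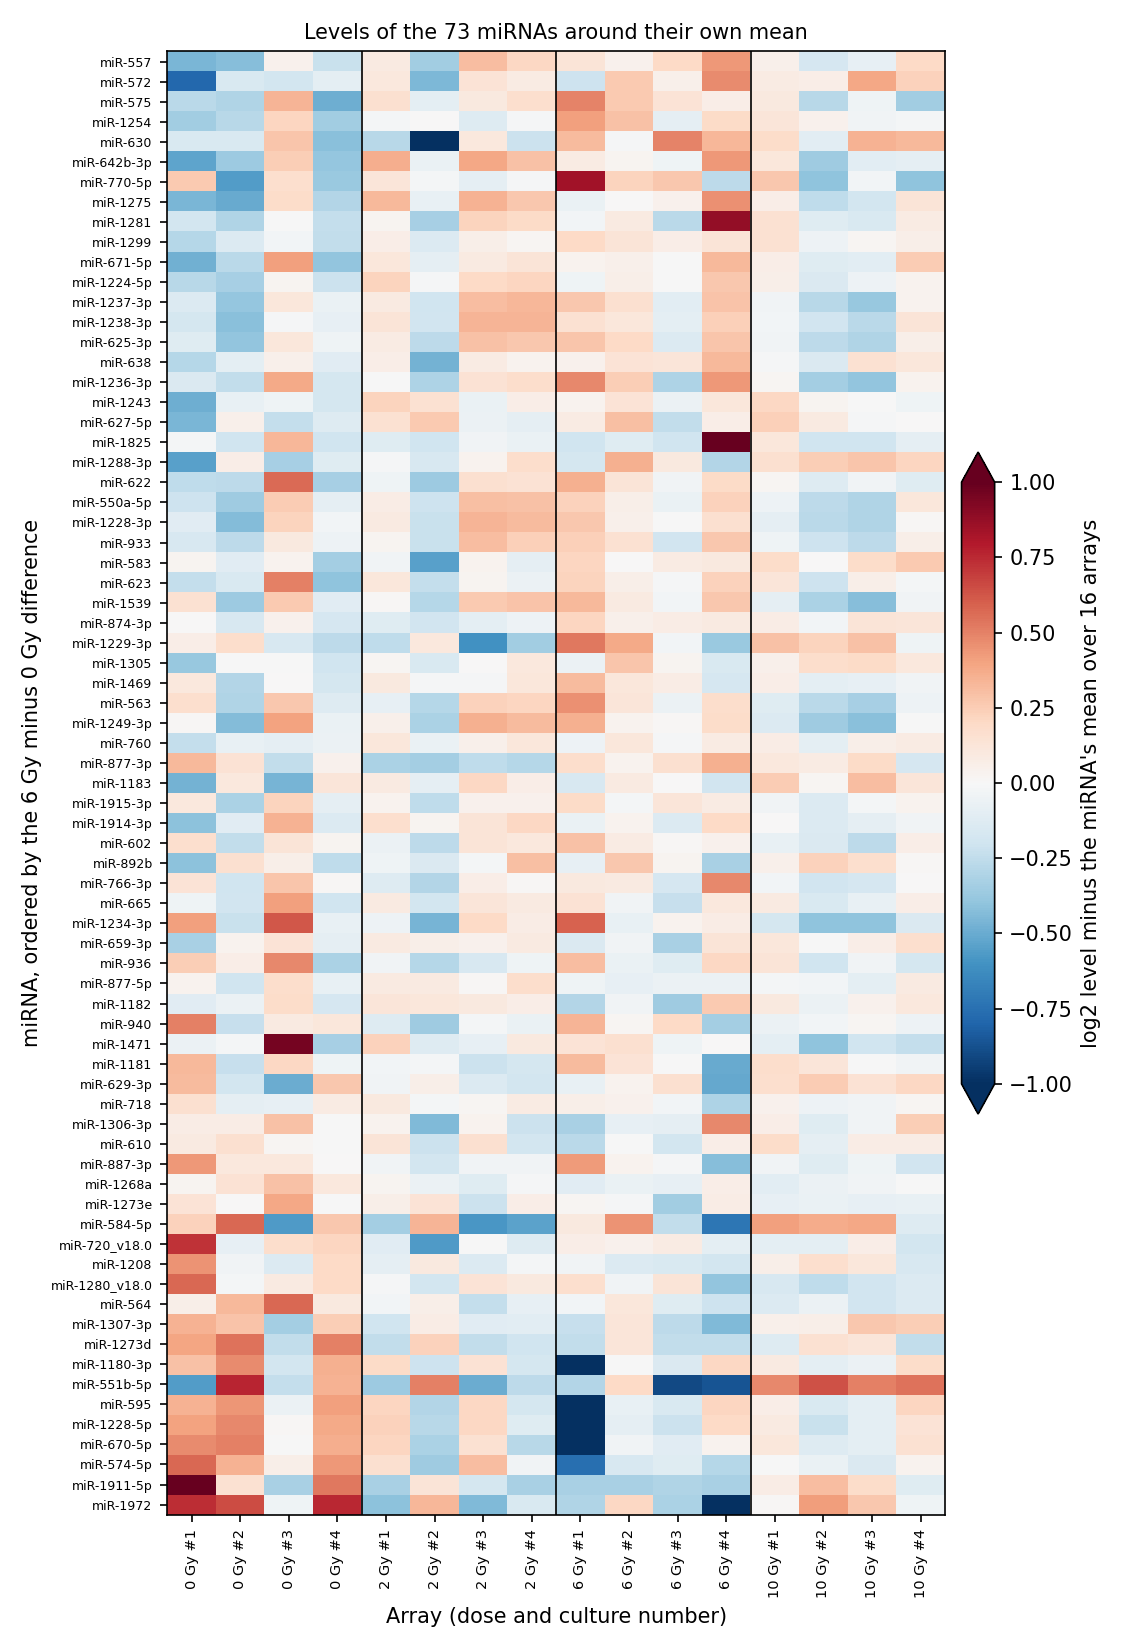
Heat map of the 73 miRNAs (rows, ordered by the 6 Gy minus 0 Gy difference) on 16 arrays (columns, dose and culture number, doses parted by black lines). Colour is the log2 level minus that miRNA's mean over the 16 arrays, clipped at 1 in either direction; the third array of 0 Gy departs from the other 0 Gy arrays in many rows, and 4 miRNAs near the bottom are lowest on the first array of 6 Gy.

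The comparisons that follow were fitted with limma on all 16 arrays, with p-values adjusted by Benjamini-Hochberg over the 283 miRNAs and a threshold of 0.05. The 2, 6 and 10 Gy comparisons share the same 0 Gy arrays, so they are not independent of each other. On array 3 of 0 Gy the members deviated from the mean of their dose by 0.291 on average, against 0.077 to 0.237 on the other 15 arrays.

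At 2 Gy 1 of the 73 members passed the threshold, miR-1224-5p, which rose. The largest positive differences among the members detected on all 16 arrays, those of miR-642b-3p and miR-1275, did not pass. The members' differences were small, with a median of 0.03 for the members and 0.03 for the others, and none exceeded 1 in size, against 36 of the 210 others. Over all 283 miRNAs, 36 (12.7%) passed at 2 Gy, 17 of them higher (6.01%) and 19 lower (6.71%). Among the members the share was 1.37%, with 13 at an unadjusted p under 0.05, against 99 of all 283 (35.0%).

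miR-1224-5p is a mirtron, spliced from an intron of VWA5B2. Its levels at 0 Gy were -0.61, -0.67, -0.31 and -0.55 on arrays 1 to 4. At 2 Gy they were -0.11, -0.35, -0.14 and -0.12. Thus 3 of the 4 arrays at 2 Gy lay above every control, while array 2 fell just below the highest control, so the groups overlapped. The log2 difference was 0.36 ± 0.10 (SE), a 1.28-fold rise, with an adjusted p of 0.0333 by limma with Benjamini-Hochberg. At 6 Gy it read 0.27 above the controls (limma adjusted p = 0.0594) and at 10 Gy 0.18 above (0.310). The call at 2 Gy was lost without array 1, 2 or 4 of 0 Gy, array 1, 3 or 4 of 2 Gy, or array 4 of 10 Gy. Without any 1 of them the difference was 0.31 to 0.35 and the limma adjusted p 0.0543 to 0.111. On slide 1 alone, where both doses lie, the difference was the same 0.36 with an adjusted p of 0.132.

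miR-642b-3p and miR-1275 ran alike from array to array, which was noticed after their values were seen. miR-642b-3p measured 2.09, 2.25, 2.86 and 2.23 at 0 Gy, and 2.98, 2.55, 3.00 and 2.91 at 2 Gy. miR-1275 measured 2.14, 2.09, 2.78 and 2.30 at 0 Gy, and 2.92, 2.52, 2.94 and 2.86 at 2 Gy. In both, array 3 of 0 Gy stood with the 2 Gy arrays and array 2 of 2 Gy was the lowest of its dose. The differences were 0.50 ± 0.17 and 0.48 ± 0.16 (SE), each with a limma adjusted p of 0.0607. At 6 Gy they were 0.39 and 0.38, and at 10 Gy 0.15 and 0.21.

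The largest falls at 2 Gy among the members detected on all 16 arrays did not pass the threshold either. miR-1972 read 0.69 below the controls, a log2 difference of -0.69 ± 0.33 (SE, limma adjusted p = 0.143). miR-720_v18.0 differed by -0.46 ± 0.15 (0.0607), miR-670-5p by -0.39 ± 0.22 (0.200) and miR-564 by -0.34 ± 0.12 (0.0607). miR-877-3p differed by -0.36 ± 0.12, with a limma adjusted p of 0.0528 and all 4 arrays at 2 Gy below all controls. The arrays decided much of this comparison. Without array 3 of 0 Gy, 18 members passed, 11 higher and 7 lower, and 123 of all 283. Without array 2 of 2 Gy 7 passed (87 of all 283), and without array 4 of 6 Gy 5 passed (59 of all 283). Without array 1 or 4 of 0 Gy, any of arrays 1, 3 and 4 of 2 Gy, or array 4 of 10 Gy no member did (0 to 29 of all 283). Without both array 3 of 0 Gy and array 2 of 2 Gy, an alternative added after the data were seen, 26 passed, 19 higher and 7 lower, and 153 of all 283. Of these 26, 22 met the detection rule at every dose.

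**Figure D2:**
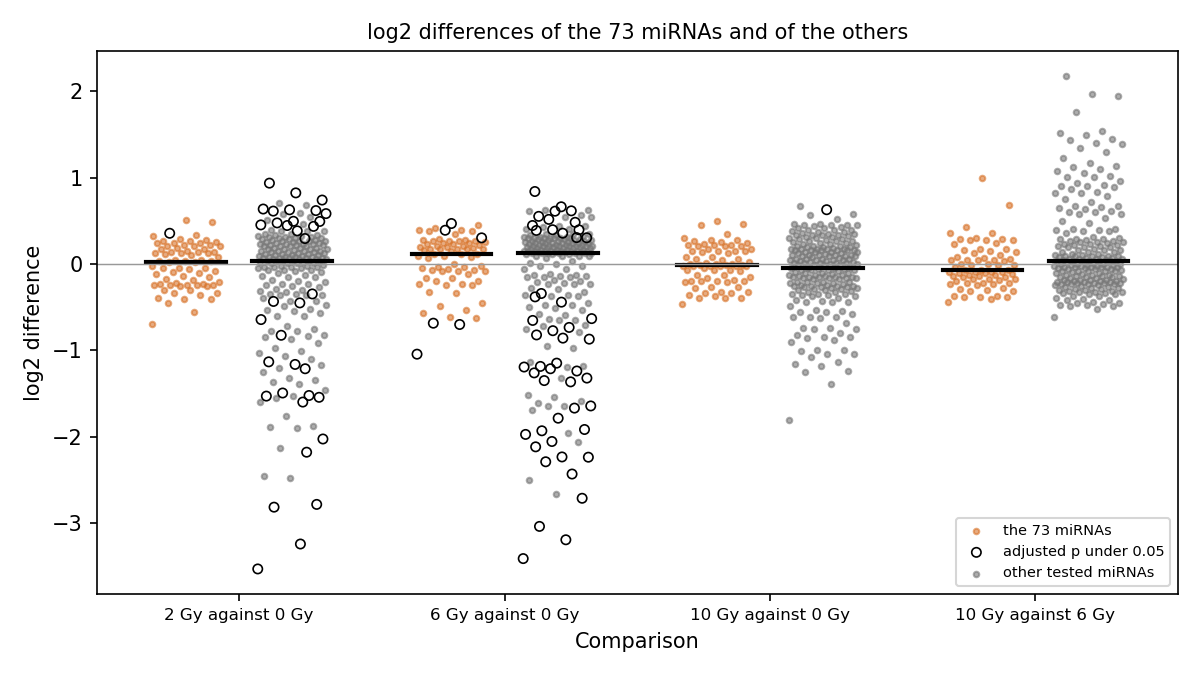
log2 differences of the 73 miRNAs (orange) and of the 210 other tested miRNAs (grey) in 4 comparisons, 1 point per miRNA, with black bars at the medians and open circles at an adjusted p under 0.05. The orange points lie between -1.05 and 1.0 throughout, while the grey points at 2 and 6 Gy reach below -3.

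At 6 Gy 6 of the 73 members passed the threshold, 3 higher and 3 lower. miR-574-5p and miR-1972 fell, and miR-1299 and miR-557 rose. The other two, miR-1254 (higher) and miR-1911-5p (lower), met the detection rule at only 2 doses and are given as values. Over all 283 miRNAs, 55 (19.4%) passed, 17 higher (6.01%) and 38 lower (13.4%), against 8.22% of the members. At an unadjusted p under 0.05 there were 20 members, against 118 of all 283 (41.7%). Of the 59 members that met the rule at every dose, 4 passed, 2 in each direction. The median difference was 0.11 for the members and 0.12 for the others, and 1 member exceeded 1 in size, against 40 others.

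miR-574-5p lies in an intron of FAM114A1 and, as a GU-rich sequence, is known to bind the RNA-binding protein CUGBP1. Its levels at 0 Gy were 0.33, 0.10, -0.19 and 0.19. At 6 Gy they were -1.0, -0.41, -0.37 and -0.53. Every array at 6 Gy lay below every control, and the first was the lowest. The difference was -0.69 ± 0.16 (SE), with a 95% interval from -1.04 to -0.34 and a limma adjusted p of 0.0304. At 2 Gy its levels were -0.09, -0.60, 0.06 and -0.28, and at 10 Gy -0.25, -0.31, -0.39 and -0.21. These gave differences of -0.34 (limma adjusted p = 0.154) and -0.40 (0.165), with no overlap with the controls at 10 Gy. The call at 6 Gy was lost without array 1, 2 or 4 of 0 Gy or array 1 or 4 of 6 Gy, at -0.69 to -0.55 and an adjusted p of 0.0604 to 0.0760. Leaving the arrays unscaled also ended it (-0.44, 0.247), as did scaling over all probes (-0.31, 0.147).

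miR-1972, measured by 1 passing probe, had the largest difference of any member. Its levels were -1.20, -1.29, -1.98 and -1.19 at 0 Gy, and -2.24, -1.73, -2.26 and -3.62 at 6 Gy. Array 3 of 0 Gy lay below array 2 of 6 Gy, so the groups overlapped, and array 4 of 6 Gy stood far below the rest. The difference was -1.05 ± 0.33 (SE), a 2.06-fold fall, with a limma adjusted p of 0.0407. Without array 4 of 6 Gy, on which the labelling spike-in was undetected, it was -0.64 (limma adjusted p = 0.0858). The call was also lost without array 1, 2 or 4 of 0 Gy, array 1 or 4 of 2 Gy, array 1 or 3 of 6 Gy, or array 1, 2 or 3 of 10 Gy. Without any 1 of those the difference was -1.13 to -0.97 and the adjusted p 0.0509 to 0.117. Adding the labelling spike-in as a covariate gave -0.68 (0.0706). Averaging in its probes detected on any array gave -0.75 (0.0447). At 10 Gy its levels, -1.93, -1.52, -1.67 and -1.98, lay within the range of the controls or near it, at a difference of -0.36 (limma adjusted p = 0.530).

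miR-1299 and miR-557 rose. miR-1299 measured -2.87, -2.72, -2.61 and -2.83 at 0 Gy, and -2.39, -2.46, -2.52 and -2.46 at 6 Gy. All 4 arrays at 6 Gy lay above all controls, and the spread at 6 Gy was only 0.05 (SD). The difference was 0.30 ± 0.08 (SE, limma adjusted p = 0.0353), against 0.17 at 2 Gy (0.141) and 0.22 at 10 Gy (0.142). Its call was lost without array 1, 2 or 4 of 0 Gy, array 1 of 2 Gy, array 1 or 4 of 6 Gy or array 3 of 10 Gy, at 0.27 to 0.32 and an adjusted p of 0.0512 to 0.0901. With normexp background correction, an alternative way to remove background, the difference of miR-1299 shrank to 0.10 (0.563).

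miR-557 measured -0.07, -0.04, 0.43 and 0.17 at 0 Gy, and 0.52, 0.43, 0.59 and 0.82 at 6 Gy. The lowest array at 6 Gy lay just above the highest control, which again was array 3. The difference was 0.47 ± 0.15 (SE), a 1.38-fold rise, with a limma adjusted p of 0.0454. At 2 Gy it was 0.33 (0.141) and at 10 Gy 0.27 (0.314), with overlap at both doses. The call was lost without array 1, 2 or 4 of 0 Gy, array 1 or 4 of 2 Gy, array 1, 3 or 4 of 6 Gy, or array 1, 2 or 3 of 10 Gy, at 0.41 to 0.49 and an adjusted p of 0.0530 to 0.121.

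miR-1254 and miR-1911-5p lay near the floor and are described without a test. miR-1254 measured -4.60, -4.53, -4.04 and -4.60 at 0 Gy, and -3.84, -3.96, -4.34 and -4.06 at 6 Gy. It was detected on 2 of 4 control arrays and on all 4 at 6 Gy. miR-1911-5p measured -3.10, -4.12, -4.60 and -3.75 at 0 Gy, and -4.60, -4.60, -4.58 and -4.60 at 6 Gy, where it was detected on 2 arrays. All arrays of 6 Gy lay at or next to the floor, and so did array 3 of 0 Gy, so the size of the difference is not known. At 10 Gy miR-1911-5p measured -4.20, -3.97, -4.09 and -4.40, above every array of 6 Gy.

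**Figure D3:**
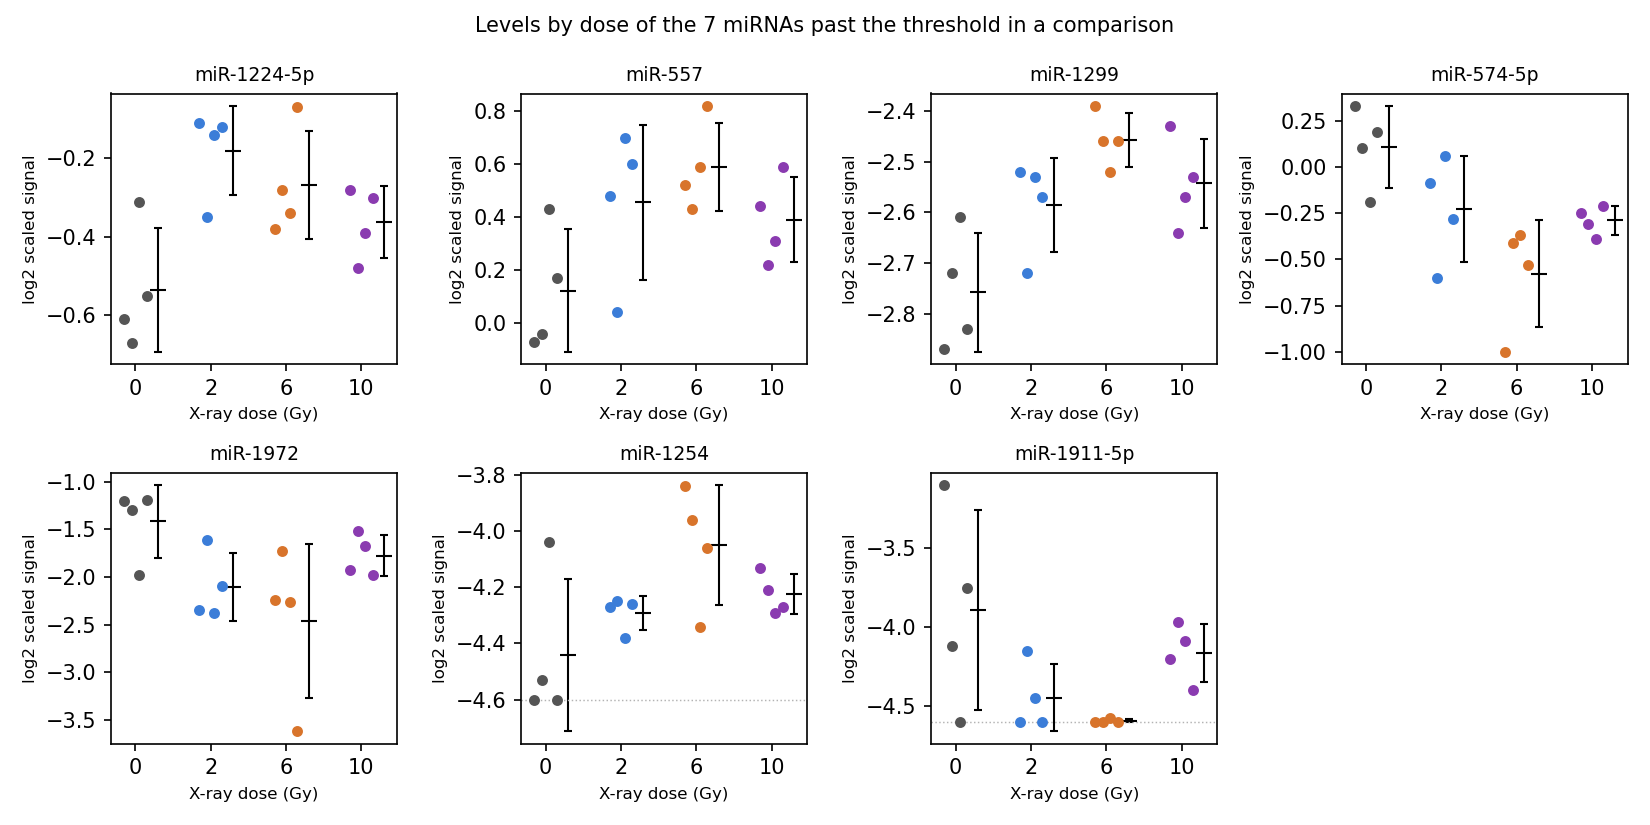
log2 scaled signal (vertical axes, each panel with its own range) against X-ray dose for the 7 miRNAs past the threshold in a comparison, with 1 point per array, arrays 1 to 4 from left to right, and the mean ± SD (n = 4) beside them; the dotted line in the last 2 panels is the floor of -4.60. miR-574-5p and miR-1299 at 6 Gy do not overlap the 0 Gy arrays, and the array at -3.62 sets the wide spread of miR-1972 at 6 Gy.

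A set of 4 members, picked after their values were seen, was lowest on the same array, the first of 6 Gy. There miR-595 measured -3.72, miR-670-5p -4.42, miR-1180-3p -4.41 and miR-1228-5p -4.39. The other 3 arrays of 6 Gy lay between -2.78 and -2.41 for miR-595, between -3.50 and -3.35 for miR-670-5p, between -3.50 and -3.15 for miR-1180-3p and between -3.50 and -3.09 for miR-1228-5p. The 6 Gy differences from the controls were -0.56 ± 0.23, -0.62 ± 0.22, -0.48 ± 0.23 and -0.62 ± 0.23 (SE), with limma adjusted p-values of 0.0822, 0.0555, 0.120 and 0.0592. None passed the threshold. Without that array the differences of miR-595, miR-670-5p, miR-1180-3p and miR-1228-5p were -0.30, -0.38, -0.22 and -0.35 (limma adjusted p = 0.200, 0.108, 0.304 and 0.129). The labelling spike-in read 1.67 on that array and 1.02 on array 1 of 2 Gy, where all 4 members were the highest of their dose. The part of the spike-in in these values was not tested. miR-1228-3p, the other arm of the hairpin of miR-1228-5p, was not low there: it measured -0.32 on that array and -0.54, -0.59 and -0.43 on the others.

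**Figure D4:**
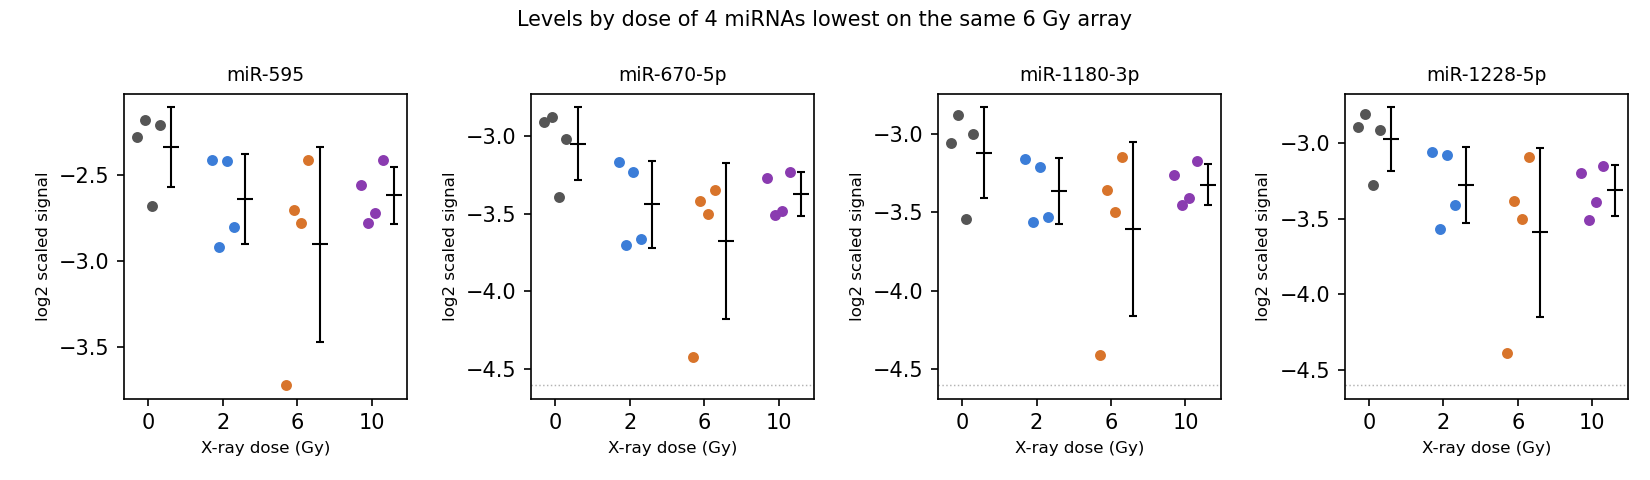
log2 scaled signal against X-ray dose for miR-595, miR-670-5p, miR-1180-3p and miR-1228-5p, with 1 point per array, arrays 1 to 4 from left to right, and the mean ± SD (n = 4) beside them; the dotted line in the last 3 panels is the floor of -4.60. In each panel the lowest point is array 1 of 6 Gy.

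Among the members detected on every array, the largest positive differences at 6 Gy short of the threshold belonged to miR-572 (0.45 ± 0.18), miR-575 (0.42 ± 0.16), miR-642b-3p (0.39 ± 0.17), miR-630 (0.39 ± 0.22) and miR-770-5p (0.39 ± 0.23, SE), with limma adjusted p-values from 0.0671 to 0.195.

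The count at 6 Gy also rested on single arrays. Without array 3 of 0 Gy 22 members passed, 12 higher and 10 lower, and 143 of all 283. None passed without array 1, 2 or 4 of 0 Gy or array 1 or 4 of 6 Gy, where at most 2 of all 283 did. The count was 1 without array 1 of 2 Gy (11 of all 283) or array 3 of 10 Gy (18). Leaving out array 4 of 2 Gy (23 of all 283) or array 1 (18) or 2 (40) of 10 Gy gave 2 members. Leaving out array 3 of 6 Gy gave 3 (19 of all 283). The member count was 4, 7 and 8 without array 3 of 2 Gy, array 2 of 2 Gy and array 2 of 6 Gy (46, 73 and 78 of all 283). Without array 4 of 10 Gy it was 4 (52 of all 283). With both array 3 of 0 Gy and array 2 of 2 Gy left out, 32 passed, and 171 of all 283. Scaling mattered to the direction. With scaling over all probes 39 passed, all higher, and 177 of all 283 (148 higher, 29 lower). With quantile normalization 18 passed (16 higher), and 100 of all 283 (65 higher, 35 lower). Without scaling 0 passed, and 4 had an unadjusted p under 0.05 by limma. The labelling spike-in was lowest on average at 6 Gy, with the -2.32 of array 4, where it was undetected, counted in. The summed scaled signal of 5 epithelial markers ranged from 0.271 to 1.05 at 6 Gy. At the other doses this signal ranged from 0.685 to 3.91 (0 Gy), 0.510 to 2.25 (2 Gy) and 0.672 to 1.67 (10 Gy). That of miR-150-3p and miR-155-5p ranged from 3.66 to 6.16 at 0 Gy, 4.63 to 6.89 at 2 Gy, 5.90 to 7.51 at 6 Gy and 5.19 to 6.30 at 10 Gy. Nearly all of it was miR-150-3p (levels of 1.82 to 2.88, against -3.21 to -2.58 for miR-155-5p). These were the only 2 names detected of 10 on the white blood cell and platelet list. The remaining 8, among them miR-150-5p, were detected on no array. The part of these in the 6 Gy differences was not tested.

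At 10 Gy none of the 73 members passed the threshold by limma, and 12 had an unadjusted p under 0.05. Over all 283 miRNAs 1 passed (0.353%) and 63 had an unadjusted p under 0.05 (22.3%). Among the members detected on all 16 arrays, the largest rises were miR-572 and miR-1288-3p and the largest falls miR-1234-3p, miR-574-5p and miR-1280_v18.0. Without array 3 of 0 Gy 4 members passed, of which miR-671-5p, miR-1254 and miR-1299 read higher and miR-1273d lower, and 45 of all 283 passed. Of these members miR-1273d met the detection rule at 0 Gy only and miR-1254 at 2 doses, so both are descriptions. Without both that array and array 2 of 2 Gy 12 members and 80 of all 283 passed. Once the labelling spike-in was a covariate, 8 members and 59 of all 283 did.

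miR-572 measured -0.16, 0.47, 0.44 and 0.53 at 0 Gy, and 0.71, 0.69, 1.01 and 0.86 at 10 Gy. Every array at 10 Gy lay above every control, and the first control was far below the others. The difference was 0.50 ± 0.18 (SE, limma adjusted p = 0.129), after 0.28 at 2 Gy and 0.45 at 6 Gy. miR-1288-3p measured -2.62, -2.01, -2.41 and -2.20 at 0 Gy, and -1.92, -1.83, -1.80 and -1.86 at 10 Gy, again with no overlap, at a difference of 0.46 ± 0.15 (SE, 0.0889). Among the members detected on all 16 arrays, miR-1183, miR-630 and miR-1305 followed at 0.35 ± 0.14 (0.162), 0.30 ± 0.22 (0.424) and 0.28 ± 0.11 (0.157).

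miR-564 had the smallest adjusted p among the members at 10 Gy. It measured -1.56, -1.29, -1.04 and -1.52 at 0 Gy and -1.75, -1.67, -1.81 and -1.75 at 10 Gy, with all 4 irradiated arrays below all controls. The difference was -0.39 ± 0.12 (SE, limma adjusted p = 0.0741), close to the -0.34 at 2 Gy and the -0.32 at 6 Gy. miR-1234-3p differed by -0.46 ± 0.20 (0.192) and miR-1471 by -0.37 ± 0.21 (0.309).

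Between 10 Gy and 6 Gy, which lie on the same slide, no member passed by limma, and 6 had an unadjusted p under 0.05. The background was 0 of 283 (0%) past the threshold and 42 (14.8%) unadjusted. Among the members detected on all 16 arrays, the largest rises here were miR-1972 (0.69 ± 0.33, SE, limma adjusted p = 0.326) and miR-1307-3p (0.36 ± 0.15, 0.321), and the largest fall was miR-1234-3p (-0.44 ± 0.20, 0.321). The arrays of these doses that carry the same culture number deviated together (correlations of 0.23 to 0.72), though arrays with different numbers reached 0.62. A paired fit on slide 2 alone was added after the data were seen. In that fit 8 members passed, 2 higher and 6 lower, which is 11% of the members against 55 of 283 (19.4%) overall. The 6 lower were miR-1234-3p, miR-1237-3p, miR-1249-3p, miR-1539, miR-575 and miR-563, by 0.32 to 0.44, with paired limma adjusted p-values from 0.0325 to 0.0487. The 2 higher, miR-551b-5p and miR-1911-5p, met the detection rule at only 2 doses and are given as values, with no weight from the test. miR-563 met it at 3 doses, so 5 of the 8, all lower, met it at every dose. Each of the 8 moved the same way in 4 of 4 pairs, which a paired fit on those pairs favours, so it adds no support. With the culture number as a block over all 16 arrays, no member passed and 11 had an unadjusted p under 0.05 by limma.

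miR-551b-5p, which met the detection rule at 2 and 10 Gy only, is given without a test. It measured -3.99, -3.50, -4.60 and -4.56 at 6 Gy and -3.22, -3.06, -3.20 and -3.16 at 10 Gy. All of the latter lay above all of the former. At 0 Gy it varied between -4.26 and -2.94, so the 10 Gy arrays lay within the range of the controls.

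No member had a slope on dose past the threshold by limma, and 10 had an unadjusted p under 0.05, where 0 of 283 (0%) passed and 36 (12.7%) had an unadjusted p under 0.05. The steepest slopes were 0.0482 ± 0.0217 log2 per Gy (SE, limma adjusted p = 0.361) for miR-630 and -0.0403 ± 0.0188 (0.377) for miR-574-5p. Slide and dose are partly confounded in these slopes.

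Of 10 names on the array in a list of miRNAs tied to DNA damage or p53, 4 were members: miR-622, miR-630, miR-638 and miR-1915-3p. None passed the threshold at any dose, where 36, 55 and 1 of all 283 miRNAs did at 2, 6 and 10 Gy. At 6 Gy all 4 had a difference above 0, as did 116 of the 210 other tested miRNAs, with medians of 0.25 and 0.12. At 10 Gy 3 of 4 did, and 100 of the 210, with medians of 0.07 and -0.04. The list was chosen with earlier results of these data known. miR-630, linked in other work to apoptosis after DNA damage, measured 2.49, 2.49, 2.92 and 2.23 at 0 Gy. At 6 Gy it measured 2.96, 2.63, 3.14 and 2.98, and at 10 Gy 2.83, 2.54, 2.99 and 2.97. Only array 3 of 0 Gy reached into the range of the irradiated arrays at these doses, and the differences were 0.39 ± 0.22 (SE, limma adjusted p = 0.165) and 0.30 ± 0.22 (0.424). At 2 Gy it measured 2.37, 1.61, 2.75 and 2.43, with array 2 far below the rest, at a difference of -0.24 (0.417).

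miR-638 differed from the controls by 0.04 at 2 Gy, 0.27 at 6 Gy (95% interval 0 to 0.54, limma adjusted p = 0.122) and 0.14 at 10 Gy. miR-1915-3p differed by -0.02, 0.11 and -0.02 at the same doses, with 95% intervals that lay within -0.26 to 0.36. miR-622 differed by 0.04, 0.23 and 0.00, and its controls ranged from -2.92 to -2.02, the highest on array 3. Without that array miR-622 passed at 6 Gy, as did 143 of all 283 miRNAs, while miR-630, miR-638 and miR-1915-3p did not.

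**Figure D5:**
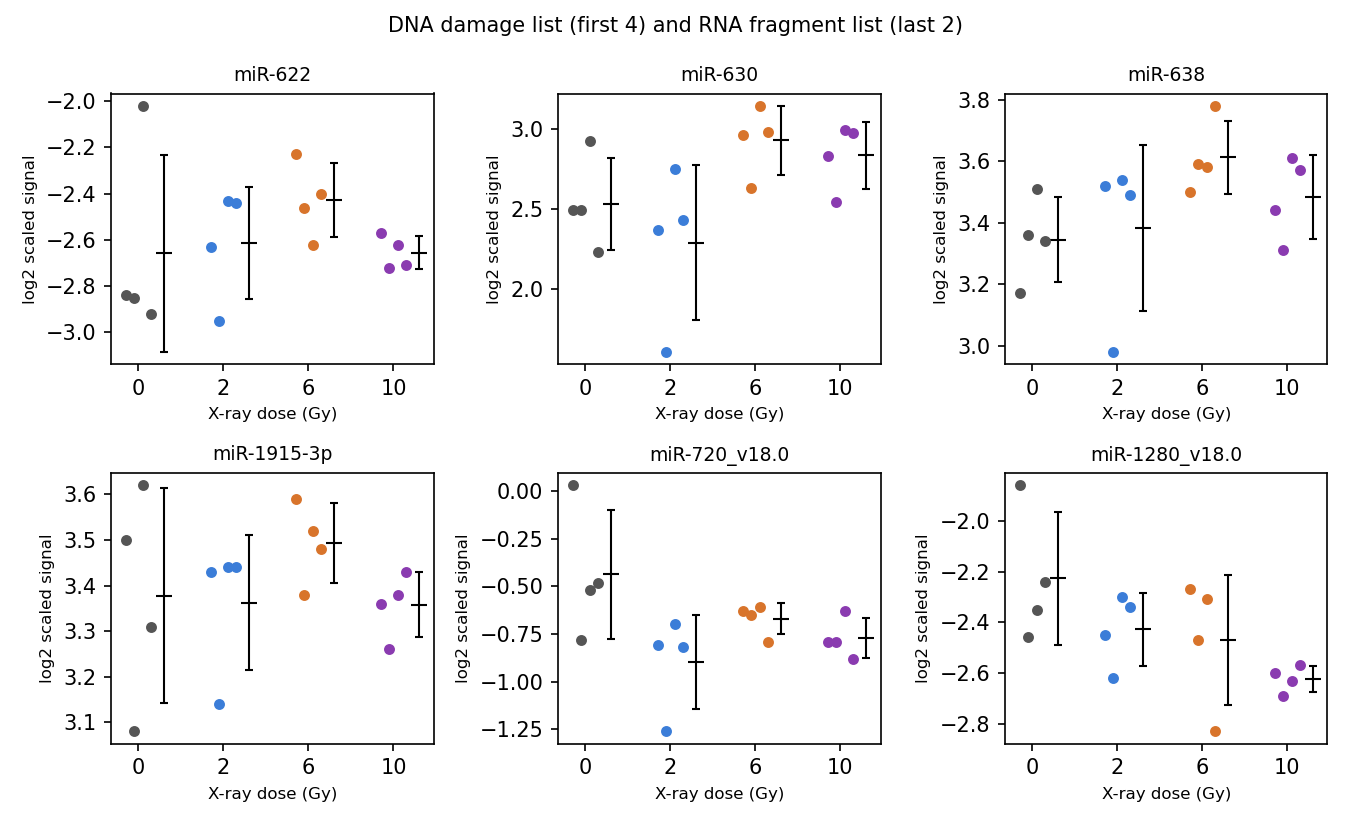
log2 scaled signal against X-ray dose for the 4 members of the DNA damage list and the 2 names later traced to fragments of other RNAs, with 1 point per array, arrays 1 to 4 from left to right, and the mean ± SD (n = 4) beside them. miR-720_v18.0 and miR-1280_v18.0 have lower means at 2, 6 and 10 Gy than at 0 Gy. Each of these doses overlaps the 0 Gy arrays except for miR-1280_v18.0 at 10 Gy.

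The mirtron list held 14 names on the array, of which 10 were members. At 2 Gy 1 of the 10, miR-1224-5p, passed the threshold, against 36 of all 283 miRNAs (12.7%). At that dose 6 were above 0, with a median of 0.08. At 6 Gy none passed, against 55 of all 283, with 7 above 0 and a median of 0.19 against 0.12 over the others. At 10 Gy none passed either, with 3 above 0 and a median of -0.03. miR-1237-3p and miR-1238-3p ran alike: they differed from the controls by 0.26 and 0.33 at 2 Gy, 0.27 and 0.27 at 6 Gy, and -0.04 and 0.08 at 10 Gy, with limma adjusted p-values of at least 0.109. miR-1229-3p went the other way at 2 Gy, at -0.23 ± 0.19 (0.378).

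The hairpins miR-877 and miR-1228, both on the mirtron list, were measured in both arms. miR-877-5p measured -0.35, -0.59, -0.21 and -0.46 at 0 Gy and -0.30, -0.30, -0.38 and -0.21 at 2 Gy. miR-877-3p measured -3.32, -3.50, -3.89 and -3.60 at 0 Gy and -3.96, -3.98, -3.90 and -3.93 at 2 Gy. The 5p arm overlapped the controls, at a difference of 0.10 ± 0.08, while the 3p arm lay below them, at -0.36 ± 0.12 (SE, limma adjusted p = 0.364 and 0.0528). At 6 and 10 Gy both arms were within 0.12 of the controls. The arms of miR-1228 differed from the controls by 0.21 (3p) and -0.62 (5p) at 6 Gy, with the 5p value resting on the array described above. The difference between arms was not tested.

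Of 5 names on the array later traced to fragments of other RNAs, 2 were members. miR-720_v18.0, a fragment of a threonine transfer RNA, measured 0.03, -0.78, -0.52 and -0.48 at 0 Gy, where the first array was the highest of all 16. It measured -0.81, -1.26, -0.70 and -0.82 at 2 Gy, with differences of -0.46 at 2 Gy, -0.23 at 6 Gy (limma adjusted p = 0.241) and -0.33 at 10 Gy (0.221). miR-1280_v18.0, which resembles a leucine transfer RNA, measured -1.86, -2.46, -2.35 and -2.24 at 0 Gy and -2.60, -2.69, -2.63 and -2.57 at 10 Gy. All 4 arrays at 10 Gy lay below all controls, at a difference of -0.40 ± 0.14 (SE, 0.118). Its 2 probes differed from each other by up to 0.43 in the size of a change.

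A list of names chosen as conserved, with a textbook hairpin precursor, held 62 names on the array, of which 14 were members. The list is not complete: miR-670-5p, miR-718, miR-1224-5p and miR-1911-5p, which have mouse entries, are not on it. Of those on it, miR-584-5p, miR-625-3p, miR-760, miR-766-3p, miR-874-3p and miR-1307-3p matched no mouse entry by name. Its counts therefore hold for the list alone. Of the 14, 1 passed at 6 Gy (miR-574-5p, lower) and none did at 2 or 10 Gy. Over all 283 miRNAs 55 passed at 6 Gy, 36 at 2 Gy and 1 at 10 Gy. Their medians were -0.09, 0.09 and -0.01 at 2, 6 and 10 Gy. miR-671-5p measured 0.56, 0.77, 1.45 and 0.65 at 0 Gy and between 0.92 and 1.37 on every irradiated array. Array 3 of 0 Gy was the highest of all 16, and the differences were 0.25, 0.29 and 0.21. The 45 members on none of these lists had medians of 0.03, 0.09 and 0.00. At 6 Gy 5 of them passed, 3 higher and 2 lower, against 55 of all 283 miRNAs (19.4%). Those 5 include miR-1254 and miR-1911-5p, which lay near the floor and are given as values.

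Probes for the same member mostly ran together. Of the 65 members with more than 1 passing probe, the probes differed in sign for 9 at 2 Gy, 6 at 6 Gy and 11 at 10 Gy, and at 6 Gy they differed by a median of 0.05. For 1 member they were over 0.5 apart: the 2 probes of miR-1268a differed by 0.51 at 6 Gy and in sign at 2 and 6 Gy. miR-1268a itself measured 2.33, 2.45, 2.60 and 2.41 at 0 Gy, above every 2 Gy and 10 Gy array, at differences of -0.19, -0.19 and -0.19 at 2, 6 and 10 Gy. The limma adjusted p-values were 0.103, 0.0671 and 0.152. The steadiest members included miR-718, whose dose means ran from 1.48 to 1.59, with a pooled SD of 0.11.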

How the data were processed

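Per the file headers, each deposited file is the output of 1 Agilent array from Feature Extraction 11.5.1.1. The processed signal is an intensity that the scanner software had background-subtracted, with no scaling between arrays. Deposited detection, saturation and outlier flags were used with it. Of 56044 spots per array, control spots (2164) and outlier-flagged spots (3.27 to 4.90%) were left out and a probe's spots averaged. No spot was saturated. Signals were scaled to the 75th percentile of the array over the 518 probes detected on all 16 arrays, floored at 0.0412 (log2 of -4.60) and turned to log2. A miRNA's value is the mean of its passing probes. Names follow the array design without the prefix hsa-.

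limma 3.58.1 (R 4.3.3, data.table version 1.17.8) fitted a mean per dose, or a slope, with Benjamini-Hochberg adjustment over 283 miRNAs. The fit was checked on simulated data. Figures used Python 3.11.15 and matplotlib 3.10.9. The number of arrays limits the precision, and depth is not defined for arrays. Alternatives changed background, scaling, detection filter, floor, probe choice, blocks, slides and arrays.

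The members and lists were chosen with earlier results of these data known. Named were the members past the threshold, the 5 largest rises and falls per comparison, shared hairpins, the 5 of highest signal (not ranked in the text), members at 1 dose, names just outside and list members. The remaining names of these sets stand in the figures only. Culture numbers were checked for pairing: same-numbered arrays deviated together (correlation over 0.1) in 4 of 4 pairs for 6 and 10 Gy (0.23 to 0.72, against -0.70 to 0.62 for arrays with different numbers), and in 1 to 3 of 4 for the other pairs of doses, so only 6 and 10 Gy were treated as paired. That pairing comes from the data, not from the labels.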

Additional observations from a re-analysis of the deposited data

Results flagged for a closer look

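In 17 of 285 groups of 4 arrays (5.96%), 1 array stood far from the other 3 of its dose, by a gap past Dixon's 95% critical value. Chance alone gives about 1 in 20. Array 2 of 2 Gy was the lowest in 6 of them: miR-572 (0.18), miR-638 (2.98), miR-665 (-3.22), miR-887-3p (-2.13), miR-1224-5p (-0.35) and miR-1915-3p (3.14). Array 3 of 0 Gy stood apart in 4. It was highest for miR-622 (-2.02) and miR-1236-3p (-3.83) and lowest for miR-1307-3p (-4.25) and miR-1972 (-1.98). Array 1 of 0 Gy was lowest for miR-572 (-0.16) and miR-760 (-3.74). The others were the lowest values of miR-584-5p on array 4 of 10 Gy (-4.01), miR-760 on array 2 of 10 Gy (-3.60), miR-670-5p on array 1 of 6 Gy (-4.42) and miR-1254 on array 3 of 2 Gy (-4.38), and the highest of miR-671-5p on array 4 of 6 Gy (1.37).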

How the results depend on the processing

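The members past the threshold at 2 Gy (1 as reported) numbered 0 to 18 when each array was left out in turn, those at 6 Gy (6) 0 to 22 and those at 10 Gy (0) 0 to 4, while 10 against 6 Gy and the slope gave 0 each time. Over all 283 miRNAs the ranges at 2, 6 and 10 Gy were 0 to 123, 0 to 143 and 0 to 45. Without both array 3 of 0 Gy and array 2 of 2 Gy the member counts were 26, 32 and 12 at 2, 6 and 10 Gy, against 153, 171 and 80 of all 283. With scaling over all probes they were 27, 39 and 2, all higher, against 129, 177 and 22 of all 283 in either direction. That scaling moved the median difference of all 283 miRNAs from 0.03, 0.12 and -0.02 to 0.40, 0.47 and 0.18, and no scaling moved it to 0.13, 0.37 and -0.23 and called 0 members at each dose. Quantile normalization called 10, 18 and 2 members, against 59, 100 and 15 of all 283. A covariate for the labelling spike-in gave 6, 4 and 8 members, against 74, 29 and 59 of all 283. With normexp background the member counts were 0, 2 and 0 (19, 34 and 0 of all 283). A floor 1 log2 unit higher gave 2, 2 and 0 (29, 9 and 8), and the brightest probe 2, 9 and 0 (38, 66 and 9). The slide row as a block gave 4, 8 and 0 (54, 80 and 11). Agilent's total signal gave 2, 12 and 0 (29, 86 and 1 of 331 tested). Detection on any array gave 3, 7 and 0 (51, 83 and 8 of 410 tested). With the replicate block 5, 5 and 0 members passed, against 68, 75 and 7 of all 283, and none at 10 against 6 Gy. For that comparison slide 2 alone with the replicate block called 8 members, and 55 of all 283. Slide 1 alone called 0 members and 0 of all 283 at 2 Gy, with or without the block. Detection on all 16 arrays gave 1, 4 and 0 of 59 members, against 26, 35 and 7 of the 217 then tested. miR-1254 at 6 Gy went from 0.39 to -0.03 with normexp background, and no other called member changed sign. Of 29 alternatives, the 6 Gy calls held in 22 for miR-574-5p, 20 for miR-1299, 14 for miR-557 and 13 for miR-1972, and the 2 Gy call of miR-1224-5p held in 21 of 32. No alternative called a member for the slope. The cause of these shifts was not tested. Members near background lie close to the floor, so their falls are bounded by it.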
